A study of Homo sapiens with 6 samples.

Results

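Cyclins are the regulatory subunits that switch on the cyclin-dependent kinases, and their changing supply moves a cell through its division cycle. D-type cyclins pair with CDK4 and CDK6 in G1, where the complexes phosphorylate the RB protein and release E2F factors. E-type cyclins then act at entry into S phase, cyclin A2 in S phase and G2, and B-type cyclins with CDK1 at mitosis. The transcripts of 10 genes of this group were followed: the D-type cyclins CCND1, CCND2 and CCND3, the G1 kinases CDK4 and CDK6, the E-type cyclins CCNE1 and CCNE2, and CCNA2, CCNB1 and CCNB2. They were picked by gene name, as 10 of the 58735 genes in the deposited table.

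The cells were HEK293, a human embryonic kidney line transformed with adenovirus DNA, whose E1A protein binds RB family proteins. A line stably expressing tensin 2 (TNS2), a focal adhesion protein, in which glutamate replaces a tyrosine (Y483E) was compared with a line carrying phenylalanine there (Y483F), 3 libraries each. The negative charge of glutamate is meant to mimic phosphotyrosine, whereas phenylalanine has no hydroxyl group to phosphorylate. The labels give no treatment beyond the transgene, and they do not say which promoter drove it, whether a line was 1 clone, or whether the cells kept their own TNS2. Untransfected cells and cells with unmutated TNS2 were not analysed here, so every difference is between the mutant lines, and an effect of the residue cannot be told apart from other differences between the lines. The titles call the replicates biological and name no separate cultures. All p-values therefore measure only how far these samples spread, which may be technical. The submitters numbered the libraries of each line 1, 4 and 5, which are replicates 1, 2 and 3 here, and the labels do not say what the numbers stand for.

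Between 17204498 and 23284592 reads per library were counted. TNS2 itself averaged 0.948 ± 0.169 FPKM (SD, n = 3) in the Y483E line against 1.13 ± 0.0534 in the Y483F line, and reads of the transgene and of the cells' own gene are not told apart. FPKM is a level per length of the gene and per size of the library. Of 12 genes fixed as HEK293 markers 7 reached a mean of 1 FPKM, led by IRS4, while PAX8 was close to 0 and PAX2, LHX1, EYA1 and NEFM lay near or under 1. Of 8 markers of leukocytes, red cells, liver, endothelium and fibroblasts, 3 had 0 reads in every library and no value exceeded 0.0722 FPKM. The libraries did not part by line alone. The libraries numbered 1 lay above or below all of the other 4 for 25.6% of the 12833 genes tested, whereas the lines did not overlap for 17.1%. Since the libraries did not part by line alone, the 10 genes and the gene lists are also described in the libraries numbered 4 and 5.

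All 10 genes were expressed, each with at least 281 reads in every library, and their levels stood in a nearly fixed order. CCNB1, the mitotic cyclin, was the most abundant, with a mean of 100.6 FPKM over the 6 libraries. CCNA2 followed at 56.2 and CDK4 at 54.0 FPKM, then CCNB2 at 33.1, CCNE1 at 27.3, CCND1 at 24.3, CCND3 at 12.5, CDK6 at 7.20, CCND2 at 5.72 and CCNE2 at 4.20. Neighbours in this order kept it in all 6 libraries, except that CDK4 lay above CCNA2 in 1 library. The ranges over the libraries overlapped only for CCNA2 with CDK4 and for CDK6 with CCND2. FPKM divides by the summed exon length of all annotated transcripts, which is 12260 bases for CDK6 and 2550 for CCNE1, so levels compared between genes rest on those lengths.

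No cyclin or G1 kinase passed the test between the lines over all 6 libraries. The test was limma on log2(FPKM + 1), with Benjamini-Hochberg adjustment over the 12833 genes whose mean reached 1 FPKM. It called 0 of the 10 genes and 0% of all genes, and the smallest adjusted p among the 10 was 0.351. At an unadjusted p under 0.05 it had 2 of the 10, CDK4 and CDK6, both higher in Y483E, against 12.2% of all genes in either direction and 6.51% higher. On reads recovered from the FPKM values, edgeR and DESeq2 also called 0 of the 10. Against this stood 0.0438% of the 15992 genes tested in edgeR and 0.946% of the 13322 with an adjusted p in DESeq2. The same 2 had an unadjusted p under 0.05 in both, against 13.4% of the genes in edgeR and 5.29% of the 31210 with a p in DESeq2. The DESeq2 share was over genes of any level, so it is not comparable with the limma share. By fold change 8 were higher and 2 lower in Y483E, with a median log2 difference of 0.037, against 0.0070 over all genes tested. The plot of FPKM by library shows how narrow the ranges were.

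**Figure D1:**
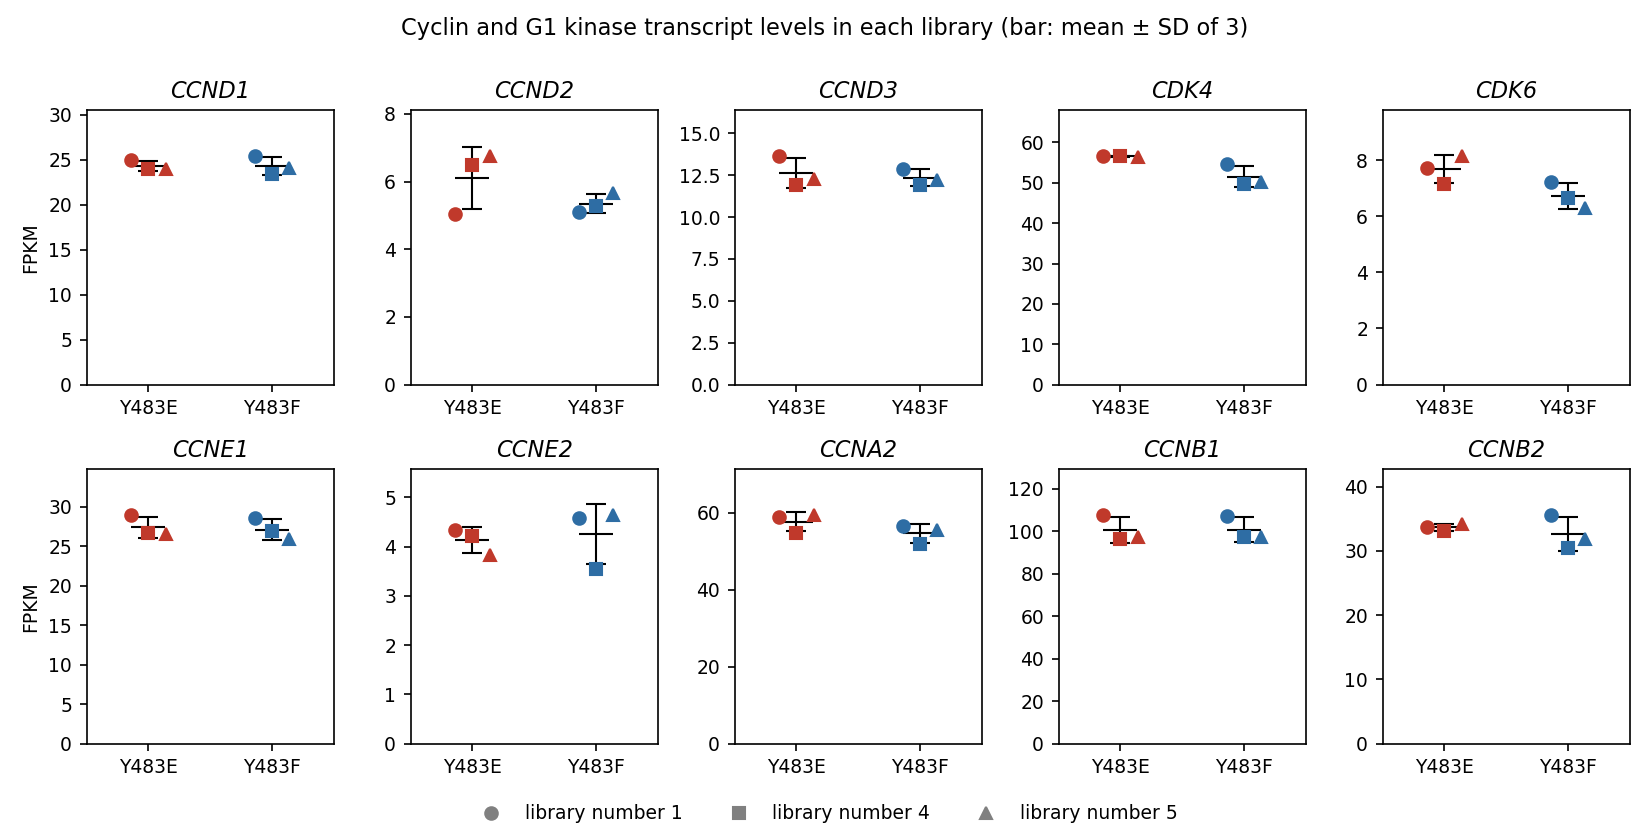
FPKM of the 10 genes (vertical axes, each from 0) in the Y483E and Y483F libraries. Points are libraries, with the shape giving the submitters' number, and bars are the mean ± SD of 3. CDK4 is the gene whose Y483E libraries, at 56.5 to 56.6, all lie above its Y483F libraries.

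CDK4, the more abundant of the kinases that carry D-type cyclins (chromosome 12, 57747727 to 57756013, minus strand), was at 56.6, 56.5 and 56.5 FPKM in Y483E replicates 1, 2 and 3. In Y483F it was at 54.6, 49.8 and 50.2 FPKM. Every Y483E library lay above every Y483F library, and Y483F replicate 1 lay closest to the Y483E libraries. Of the 10 genes CDK4 alone was separated in this way, while 9.72% of all genes tested were separated with Y483E higher and 7.37% with Y483E lower. Its SD among the Y483E libraries, 0.0739 FPKM, was 0.131% of the mean. The fewest CDK4 reads in any library, 2838 in Y483F replicate 2, would give a counting error of 1.88%. The Y483E libraries had 3209, 4175 and 3299 reads, so their counting error is somewhat smaller but still well above that SD. The log2 difference was 0.13 ± 0.046 (SE, adjusted p 0.351 in limma), with a 95% interval of 0.024 to 0.24. The exact two-sided permutation p was 0.1, the smallest that 3 libraries against 3 can give.

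CDK6, the other kinase of D-type cyclins (chromosome 7, 92604921 to 92836594, minus strand), was at 7.74, 7.16 and 8.15 FPKM in Y483E, compared with 7.23, 6.65 and 6.30 FPKM in Y483F. The groups overlapped by a small margin, since Y483F replicate 1 exceeded Y483E replicate 2. Its log2 difference was 0.17 ± 0.067 (adjusted p 0.387 in limma), with a 95% interval of 0.0092 to 0.33. The authors' deposited table, which lists genes at an unadjusted p under 0.05, holds CDK4 and CDK6 and none of the other 8. Its log2 fold changes were 0.1346 and 0.191, with the authors' adjusted p of 0.3433 and 0.2735. The DESeq2 fit on the recovered reads gave nearly the same values, 0.135 and 0.191 (adjusted p 0.343 and 0.274). Both rest on the same reads, so the listing is not independent of that fit. In that fit 5.29% of the 31210 genes with a p had an unadjusted p under 0.05. Summed, the 2 kinases were at 64.4, 63.7 and 64.7 FPKM in Y483E, compared with 61.8, 56.4 and 56.5 in Y483F. The ratio of CDK4 to CDK6 ran from 6.93 to 7.97 and overlapped between the lines.

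In the libraries numbered 4 and 5 alone, CDK4 passed the threshold in limma, with a log2 difference of 0.17 ± 0.029 (adjusted p 0.0427), and so did 5.71% of all genes (2.7% of all genes, higher). CDK6 gave 0.21 ± 0.072 there and did not pass in limma (adjusted p 0.139). On the reads of these libraries edgeR called CDK4 (0.17 ± 0.037, adjusted p 0.00544), CDK6 (0.23 ± 0.058, adjusted p 0.0138) and CCND2 (0.27 ± 0.066, adjusted p 0.0127). That was 3 of the 10, all higher in Y483E, against 15% of all genes, 7.07% higher. GAPDH, a glycolytic enzyme often used as a reference gene, was called there as well, with a log2 difference of 0.15 ± 0.042 (adjusted p 0.0247), of a size near that of CDK4. With array weights, which weigh libraries unequally, limma over all 6 called CDK4 (adjusted p 0.0212) and CDK6 (0.0412), against 14.7% of all genes, 7.32% higher. Between the replicates 1, with 1 library a line and no test, the differences were 0.052 for CDK4 and 0.086 for CDK6.

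Both kinase genes overlap other genes, and whether the libraries kept the strand is not known, so a read from 1 gene of a pair may be credited to its partner. CDK4 shares 2485 bases with TSPAN31 and 916 with MARCH9, both on the opposite strand. TSPAN31 was at 5.25 to 5.92 FPKM in Y483E and 4.87 to 5.52 in Y483F, and MARCH9 at 10.7 to 12.2 and 11.2 to 13.0, so neither was separated between the lines as CDK4 was. CDK6 shares 112 bases with the antisense gene AC002454.1, at 0.263 to 0.570 FPKM. Among the cyclins, CCND1 shares 1399 bases with LTO1 (3.09 to 3.88 FPKM) and CCNA2 shares 578 with EXOSC9 (13.6 to 14.8 FPKM), both on the opposite strand.

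The promoter windows of the kinases are shown because these were the genes with an unadjusted p under 0.05 between the lines. RefSeq windows on GRCh38.p14 were matched for 7 of the 10 genes, running from 250 bases before to 50 after the start, and CCND1, CCND2 and CCNE2 were not matched. CDK4 is read from chr12:57752261-57752560 and CDK6 from chr7:92836524-92836823, both on the minus strand and written 5′ to 3′. The CDK4 start lies 3703 bases inside the outer end of its gene model, and of 2 CDK6 starts the one nearest that end was taken. Capitals mark the E-box CACGTG, the site of MYC and related factors.
CDK4: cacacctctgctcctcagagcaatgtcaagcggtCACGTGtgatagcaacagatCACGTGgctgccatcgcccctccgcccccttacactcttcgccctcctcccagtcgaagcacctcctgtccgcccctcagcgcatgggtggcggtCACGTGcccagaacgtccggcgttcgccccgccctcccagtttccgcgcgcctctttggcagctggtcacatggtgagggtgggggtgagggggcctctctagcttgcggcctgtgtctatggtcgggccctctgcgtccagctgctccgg
CDK6: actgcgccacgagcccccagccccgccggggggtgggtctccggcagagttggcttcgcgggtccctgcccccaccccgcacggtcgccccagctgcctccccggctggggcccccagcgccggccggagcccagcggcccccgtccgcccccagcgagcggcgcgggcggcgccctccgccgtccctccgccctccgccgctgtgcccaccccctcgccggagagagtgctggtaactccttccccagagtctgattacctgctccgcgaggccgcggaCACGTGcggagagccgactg
CDK4 held 3 E-boxes, beginning 216, 196 and 101 bases upstream of the start, and CDK6 held 1, beginning 30 bases past it. Of 35116 promoter windows 7.26% held at least 1 E-box and 0.094% held 3 or more. A match describes the letters and is not evidence that a factor was bound in these cells. None of the other 4 motifs searched, given with the mitotic cyclins, was found in either window.

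Among the D-type cyclins, CCND1 made up most of the transcripts and differed least between the lines. CCND1 (chromosome 11, 69641087 to 69654474) was at 25.0, 23.9 and 24.0 FPKM in Y483E, compared with 25.4, 23.4 and 24.1 FPKM in Y483F. The groups lay on top of each other, and its coefficient of variation over the 6 libraries, 3.10%, was the lowest of the 10 genes. Its log2 difference was 0.00087 ± 0.046, and the 95% interval of -0.11 to 0.11 corresponds to 0.928 to 1.08 times the Y483F level. CCND3 (chromosome 6, 41934933 to 42050357) was at 13.6, 11.9 and 12.3 FPKM in Y483E, compared with 12.9, 11.9 and 12.2 FPKM in Y483F, with a log2 difference of 0.029 ± 0.061. In both genes the replicate 1 of each line was its highest library. Without these replicates the log2 differences were 0.013 ± 0.035 for CCND1 and 0.0054 ± 0.041 for CCND3.

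CCND2, the least abundant D-type cyclin (chromosome 12, 4273772 to 4305350), had the widest spread of the 10 genes, with a coefficient of variation of 12.8%. It was at 5.05, 6.50 and 6.76 FPKM in Y483E, compared with 5.11, 5.29 and 5.65 FPKM in Y483F. Y483E replicates 2 and 3 stood above the rest, and the replicates 1 of both lines were the lowest libraries. CCND2 shares 31579 bases with AC008012.1 on the same strand, at 0 FPKM in every library. It also shares 2413 with CCND2-AS1 on the opposite strand, at 0.0631 to 0.141 FPKM. How reads falling in both genes were credited is not known, so the level of CCND2 and its share of the D-type cyclins may be undercounted. The log2 difference was 0.15 ± 0.099 over all libraries (adjusted p 0.563 in limma) and 0.24 ± 0.057 in the libraries numbered 4 and 5 (adjusted p 0.0708). Between the replicates 1 it was -0.014. A term for a line difference that depends on the number, which assumes that a single library numbered 1 spreads as the rest do, was -0.25 ± 0.099 (adjusted p 0.315), so the line differences in CCND2 were not shown to differ between the numbers. This interaction passed for 0 of the 10 genes in limma and in edgeR, against 0.0623% and 2.01% of all genes. At an unadjusted p under 0.05 limma had 1 of the 10, CCNB2, against 15.9% of all genes, and edgeR had 2, CCND2 and CCNB2, against 15.1%.

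Shares of the summed D-type FPKM followed from these values. CCND1 held 57.2, 56.5 and 55.8% in Y483E and 58.5, 57.6 and 57.4% in Y483F, so each Y483E library lay below each Y483F library by a small margin. CCND2 held 11.6 to 15.7% and 11.8 to 13.5%, and CCND3 28.2 to 31.2% and 29.1 to 29.7%, both overlapping. The summed D-type level was 43.0 ± 0.671 FPKM in Y483E and 42.0 ± 1.42 in Y483F. The kinases together stood at 1.474, 1.504 and 1.502 times the D-type cyclins in Y483E and at 1.424, 1.392 and 1.346 times in Y483F, which is a ratio of transcripts and not of proteins.

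For the E-type cyclins, which pair with CDK2, no line difference passed, and the bounds were wide for CCNE2. CCNE1 (chromosome 19, 29811898 to 29824308) was at 28.97, 26.66 and 26.62 FPKM in Y483E, compared with 28.58, 26.94 and 25.88 FPKM in Y483F. CCNE2 (chromosome 8, 94879770 to 94896678) was at 4.34, 4.22 and 3.84 FPKM in Y483E, compared with 4.58, 3.55 and 4.64 FPKM in Y483F. The groups overlapped for both genes. Log2 differences were 0.014 ± 0.055 for CCNE1 and -0.029 ± 0.096 for CCNE2, with 95% intervals of -0.11 to 0.14 and -0.25 to 0.20. CCNE2 rested on 281 to 433 reads per library, the fewest of the 10 genes, and overlaps INTS8 and NDUFAF6 on the opposite strand. In the libraries numbered 4 and 5 the log2 differences were 0.012 ± 0.036 for CCNE1 and -0.011 ± 0.116 for CCNE2. CCNE1 transcripts were 5.58 to 7.58 times those of CCNE2.

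For the cyclins of S phase and mitosis no line difference passed either. CCNA2 (chromosome 4, 121816444 to 121823933) was at 58.8, 54.8 and 59.4 FPKM in Y483E, compared with 56.6, 51.9 and 55.6 FPKM in Y483F. Its log2 difference was 0.075 ± 0.052 (adjusted p 0.588 in limma), and the groups overlapped. CCNB1 (chromosome 5, 69167010 to 69178245) was at 107.6, 96.5 and 97.4 FPKM in Y483E, compared with 107.4, 97.4 and 97.1 FPKM in Y483F, so that same-numbered libraries lay close together. Its log2 difference was -0.0020 ± 0.062, with a 95% interval of -0.15 to 0.14. CCNB2 (chromosome 15, 59105078 to 59125045) was at 33.8, 33.1 and 34.1 FPKM in Y483E, compared with 35.6, 30.5 and 31.9 FPKM in Y483F. Y483F replicate 1 was its highest library and the other Y483F replicates its lowest. The log2 difference of CCNB2 was 0.045 ± 0.060 over all libraries, -0.073 for replicate 1 of each line and 0.10 ± 0.039 without them (adjusted p 0.161). CCNA2 and CCNB1 gave 0.086 ± 0.054 and -0.0044 ± 0.028 there. CCNB1 transcripts were 2.85 to 3.20 times those of CCNB2.

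**Figure D2:**
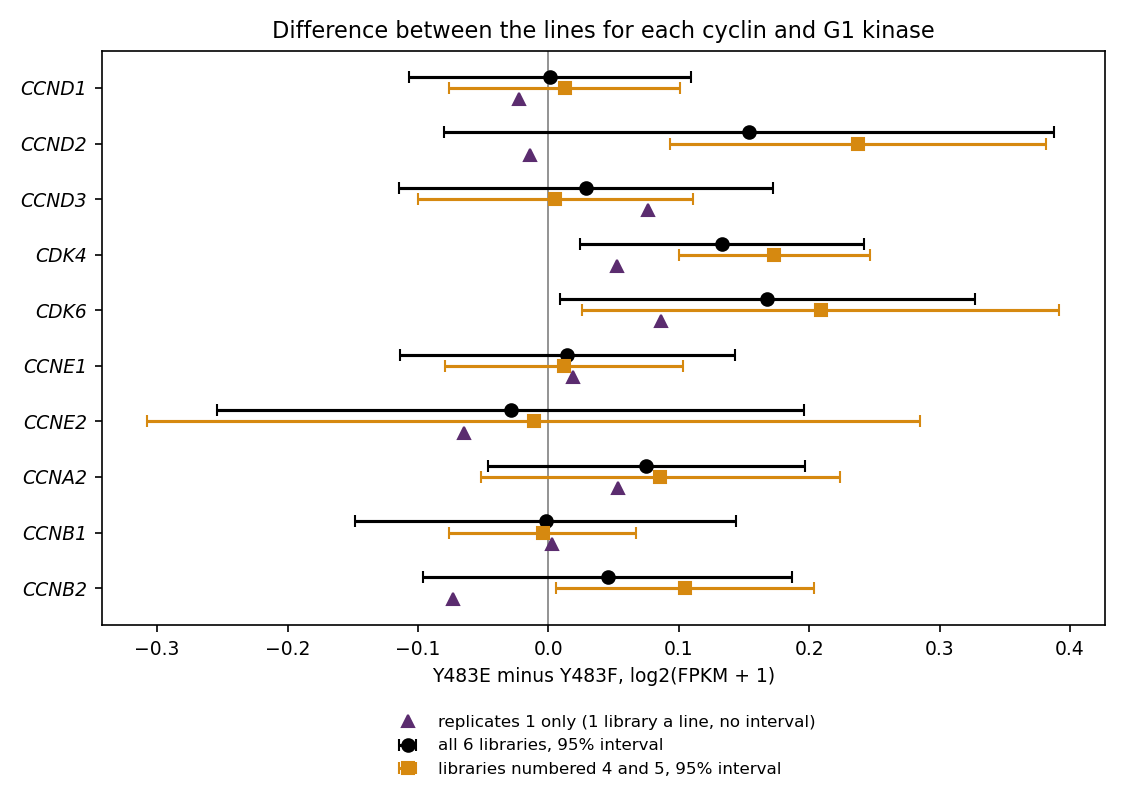
Difference of Y483E and Y483F in log2(FPKM + 1) (horizontal axis) for each gene, from limma over all 6 libraries and over the libraries numbered 4 and 5, with 95% intervals, and between the replicates 1 with none. Over all libraries the intervals of CDK4 and CDK6, at 0.13 and 0.17, lie above 0, unadjusted for the number of genes, and those of all 8 cyclins span 0, while in the libraries numbered 4 and 5 those of CCND2 and CCNB2 lie above 0 too.

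The windows of the mitotic cyclins are shown because such promoters are known to carry repeated NF-Y boxes and a CHR element. Through the CHR element their transcription is held back until G2. CCNA2 is read from chr4:121823834-121824133 on the minus strand, CCNB1 from chr5:69166900-69167199 and CCNB2 from chr15:59104896-59105195, both on the plus strand, all 5′ to 3′. Capitals mark matches on either strand to CCAAT (NF-Y box, ATTGG when on the other strand), CACGTG (E-box) and TGACGTCA (cyclic AMP response element). They also mark TTTGAA (a form of CHR element) and TTTNNCGC (a form of E2F site).
CCNA2: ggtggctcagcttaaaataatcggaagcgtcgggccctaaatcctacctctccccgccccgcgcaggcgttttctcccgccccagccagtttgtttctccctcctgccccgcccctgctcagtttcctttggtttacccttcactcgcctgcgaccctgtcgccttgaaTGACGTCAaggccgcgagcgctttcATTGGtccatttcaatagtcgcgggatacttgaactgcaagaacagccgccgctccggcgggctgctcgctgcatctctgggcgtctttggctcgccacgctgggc
CCNB1: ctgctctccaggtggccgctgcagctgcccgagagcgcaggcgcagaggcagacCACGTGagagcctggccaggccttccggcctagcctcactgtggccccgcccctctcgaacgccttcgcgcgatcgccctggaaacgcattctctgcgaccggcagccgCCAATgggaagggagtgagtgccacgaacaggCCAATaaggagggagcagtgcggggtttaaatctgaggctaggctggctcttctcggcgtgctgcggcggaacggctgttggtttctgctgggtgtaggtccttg
CCNB2: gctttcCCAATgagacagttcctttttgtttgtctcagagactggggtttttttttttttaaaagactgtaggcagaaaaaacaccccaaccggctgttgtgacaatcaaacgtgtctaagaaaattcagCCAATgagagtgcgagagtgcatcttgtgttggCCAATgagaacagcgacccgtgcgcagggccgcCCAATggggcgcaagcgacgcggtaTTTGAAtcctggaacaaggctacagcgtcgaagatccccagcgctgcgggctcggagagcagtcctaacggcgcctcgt
CCNB2 held 4 NF-Y boxes, beginning 244, 120, 87 and 54 bases upstream of the start, and the CHR form TTTGAA 29 bases upstream. CCNB1 held 2, at 87 and 55 bases, and an E-box at 196. CCNA2 held 1 at 56 bases and a cyclic AMP response element at 81. No matched letters overlapped. Among all windows 34.6% held an NF-Y box, 3.26% held 3 or more, and 15.2% held the CHR form. A cyclic AMP response element was in 1.85% and the E2F form, which none of the 7 windows held, in 6.89%. The windows of CCND3 and CCNE1 held none of the 5 motifs. The CCND3 start, the nearest of 3 to the outer end of its gene model, lies 1669 bases inside that end. A missing match says only that these letters are not in this window, and other forms of the sites were not searched.

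**Figure D3:**
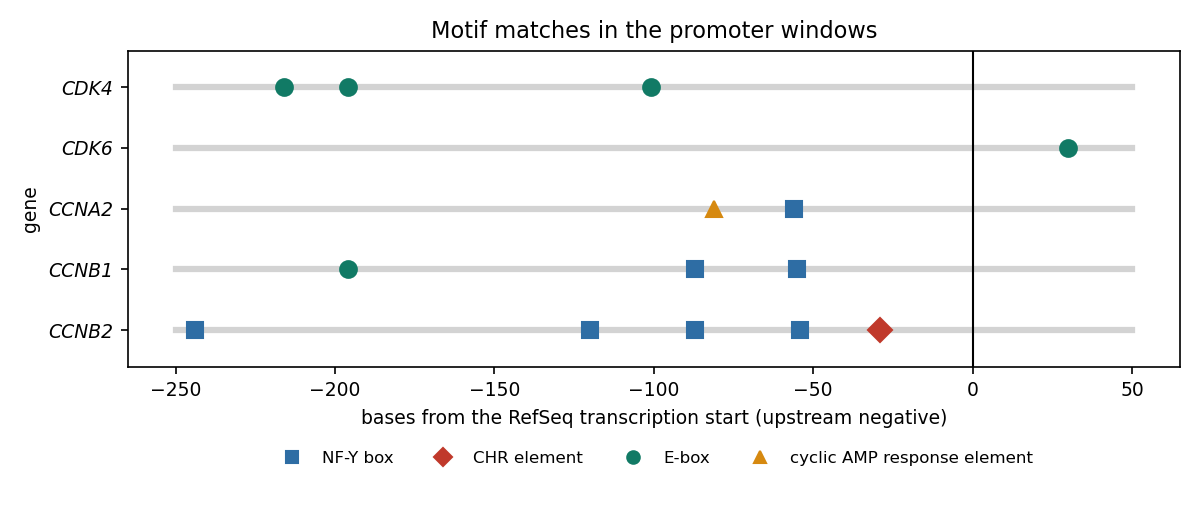
Motif matches in the 300-base promoter windows of CDK4, CDK6, CCNA2, CCNB1 and CCNB2, placed by distance from the RefSeq start (horizontal axis, bases). CDK4 shows its 3 E-boxes upstream, and the NF-Y boxes of CCNB1 and CCNB2 lie at closely matching distances of 87 and 54 to 55 bases.

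For several cyclins the libraries separated by number rather than by line. CCNB1, CCNE1, CCND1 and CCND3 were higher in both libraries numbered 1 than in any of the other 4, against 15.9% of all genes tested. CCND2 was lower in both than in the other 4, against 9.78%. CCNB1 was at 107.4 and 107.6 FPKM in the libraries numbered 1 and at 96.5 to 97.4 in the others, and CCNE1 at 28.58 and 28.97 against 25.88 to 26.94. In a model with the line as a term, added after the data had been seen, number 1 minus the others was 0.15 ± 0.029 on the log2 scale for CCNB1 (limma adjusted p 0.119). It was 0.11 ± 0.033 for CCNE1 (adjusted p 0.177), 0.12 ± 0.040 for CCND3 (0.198) and -0.21 ± 0.072 for CCND2 (0.213). Leaving out Y483E replicate 1 moved the CCND2 value to -0.083, and leaving out Y483F replicate 1 moved it to -0.33. Limma called 0 of the 10 genes and 0% of all genes for the number, with 4 of the 10 at an unadjusted p under 0.05 against 18.8% of all genes. On the reads edgeR also called 0 of the 10 and 1.4% of all genes, with 4 of the 10 at an unadjusted p under 0.05 against 18.1% of all genes.

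**Figure D4:**
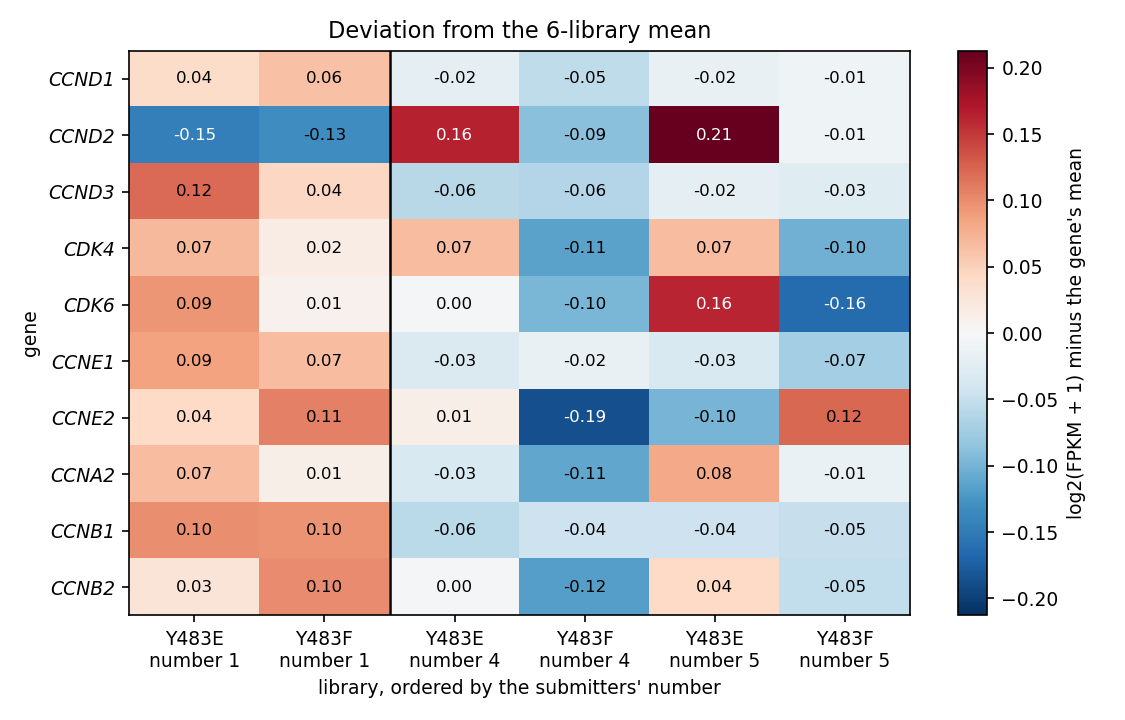
Deviation of each gene from its mean over the 6 libraries in log2(FPKM + 1) (color scale), with libraries ordered by the submitters' number. CCNB1 stands at 0.10 in both libraries numbered 1, CCND2 is lowest in them, and CDK4 is at 0.07 in all 3 Y483E libraries.

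Other cell cycle genes, 89 in 9 lists, also gave few calls over all 6 libraries. Of the 84 whose mean reached 1 FPKM none passed in limma (0 called), while 5 higher and 4 lower in Y483E had an unadjusted p under 0.05, a share near the 12.2% of all genes. None passed in edgeR (0 called). DESeq2 called 1, the inhibitor CDKN2A, against 0.946% of all genes with an adjusted p. Of the 84, 43 were higher and 41 lower, with a median log2 difference of 0.0011, against 0.0070 over all genes. The groups were separated with Y483E higher for 8 of the 84 and lower for 6, against 9.72% and 7.37% of all genes tested. The libraries numbered 4 and 5 had 55 higher and 29 lower (median 0.033, against 0.015 over all genes).

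The inhibitors of the cyclin-dependent kinases were higher in Y483E in 6 of 6 tested cases by fold change, with a median of 0.13 and 0 called by limma. In the libraries numbered 4 and 5, 5 of 6 were higher (median 0.16), and CDKN2D, chosen for mention after its values were seen, was at -0.012 there. CDKN1C, under the filter on FPKM, was at -0.12 in edgeR over all libraries. CDKN2A encodes p16INK4a, which binds CDK4 and CDK6, and also p14ARF from another reading frame. It was at 84.0, 86.3 and 86.6 FPKM in Y483E, compared with 70.9, 69.7 and 69.9 FPKM in Y483F. These libraries did not overlap, and the difference was present in the replicates 1 as well. Its log2 difference was 0.28 ± 0.036, with adjusted p of 0.246 in limma, 0.054 in edgeR and 2.7e-05 in DESeq2. CDKN1B, which encodes p27, was at 45.2 ± 0.364 and 41.3 ± 3.31 FPKM, with a log2 difference of 0.13 ± 0.059 (adjusted p 0.422 in limma). In the libraries numbered 4 and 5 limma called 3 inhibitors higher, CDKN2A, CDKN1B and CDKN1A, the last named after its values were seen, and 3 other genes, TOP2A and HMMR higher and E2F1 lower, with HMMR also outside the rule for named genes. That was 6 of 84, against 5.71% of all genes. Of the inhibitors edgeR called 2 for the library number, against 1.4% of all genes. CDKN1A was lower in number 1 (log2 -0.50, edgeR adjusted p 0.00226) and CDKN2C higher (0.28, edgeR adjusted p 0.0229). Limma called neither (adjusted p 0.0878 and 0.119).

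The RB and E2F list had a median below 0, with 4 of 13 higher and 9 lower and a median of -0.028, and with 6 higher and 7 lower (median -0.012) in the libraries numbered 4 and 5. E2F1, a factor that RB restrains, averaged 49.1 ± 0.165 FPKM in Y483E against 53.8 ± 3.41 in Y483F with separated groups, and its partner TFDP1 at 114.9 ± 5.67 and 123.8 ± 6.90. The direction of the other cyclins turned with the libraries used: 2 of 6 were higher over all libraries (median -0.033) and 4 of 6 in those numbered 4 and 5 (median 0.030). Over all libraries CCNG1 was at 76.0 ± 2.45 and 78.5 ± 5.83 and CCNC at 16.7 ± 1.596 and 17.4 ± 1.41 FPKM. Other kinases were higher in 3 of 4 cases in both sets of libraries (medians 0.015 and 0.053). CDK1, the kinase of B-type cyclins, was at 57.2 ± 0.418 and 59.0 ± 2.33 FPKM, and CDK2, that of cyclins E and A, at 28.8 ± 0.489 and 28.0 ± 1.57. Unlike CDK4, neither had separated groups.

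Genes of cyclin turnover were higher in 10 of 12 cases in both sets of libraries (medians 0.050 and 0.074), among them CKS2 at 130.4 ± 3.94 and 122.3 ± 5.602 FPKM and CDC20, which directs the destruction of B-type cyclins, at 128.5 ± 2.63 and 122.0 ± 2.33. The phosphatases and tyrosine kinases that act on CDKs were higher in 2 of 5 cases in both sets (medians -0.047 and -0.040), with CDC25A at 34.6 ± 1.28 and 33.2 ± 1.62 and CDC25B at 35.2 ± 1.12 and 36.9 ± 1.24 FPKM. Genes of the DREAM complex and its activating counterpart were higher in 3 of 8 cases over all libraries (median -0.023) and in 5 of 8 in those numbered 4 and 5 (median 0.0087), with MYBL2 at 185.0 ± 11.1 and 187.8 ± 4.98 and FOXM1 at 33.5 ± 0.355 and 34.4 ± 1.29 FPKM. Unweighted limma called none of these genes in either set of libraries (0 called). With array weights limma called CKS1B (higher, log2 0.19) and DYRK1A (lower, log2 -0.17), against 14.7% of all genes. In the libraries numbered 4 and 5 edgeR called the same 2 in the same directions, against 15% of all genes. Both are named here after their values were seen.

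Targets read out at the phases themselves were split over all 6 libraries, while both lists leaned higher in those numbered 4 and 5. G1/S genes were higher in 6 of 10 cases over all libraries (median 0.057) and in 9 of 10 in those numbered 4 and 5 (median 0.093), with the replication clamp PCNA at 259.2 ± 12.3 and 259.5 ± 2.75 FPKM and UNG, a DNA repair glycosylase, at 98.7 ± 4.20 and 93.1 ± 6.28. G2/M genes were higher in 7 of 20 cases over all libraries (median -0.024) and in 11 of 20 in those numbered 4 and 5 (median 0.013). Between the replicates 1 the medians were -0.030 for G1/S and -0.050 for G2/M genes. On the reads of the libraries numbered 4 and 5 edgeR called 2 of 10 G1/S genes, both higher. Of 21 G2/M genes it called 2 higher and 3 lower, against 15% of all genes. TOP2A, the topoisomerase of mitotic chromosomes, was at 110.2 ± 0.301 and 100.1 ± 1.72 FPKM with separated groups (log2 0.14 ± 0.037, adjusted p 0.279 in limma). UBE2C, a ubiquitin carrier of the anaphase-promoting complex, was separated in the opposite direction, at 80.0 ± 1.29 and 86.7 ± 2.80 FPKM (log2 -0.11 ± 0.041, adjusted p 0.359 in limma). Of the 20 G2/M genes 1 was separated with Y483E higher and 3 with Y483E lower, against 9.72% and 7.37% of all genes tested. In bulk RNA a change in the share of cells in a phase and a change in RNA per cell cannot be told apart.

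**Figure D5:**
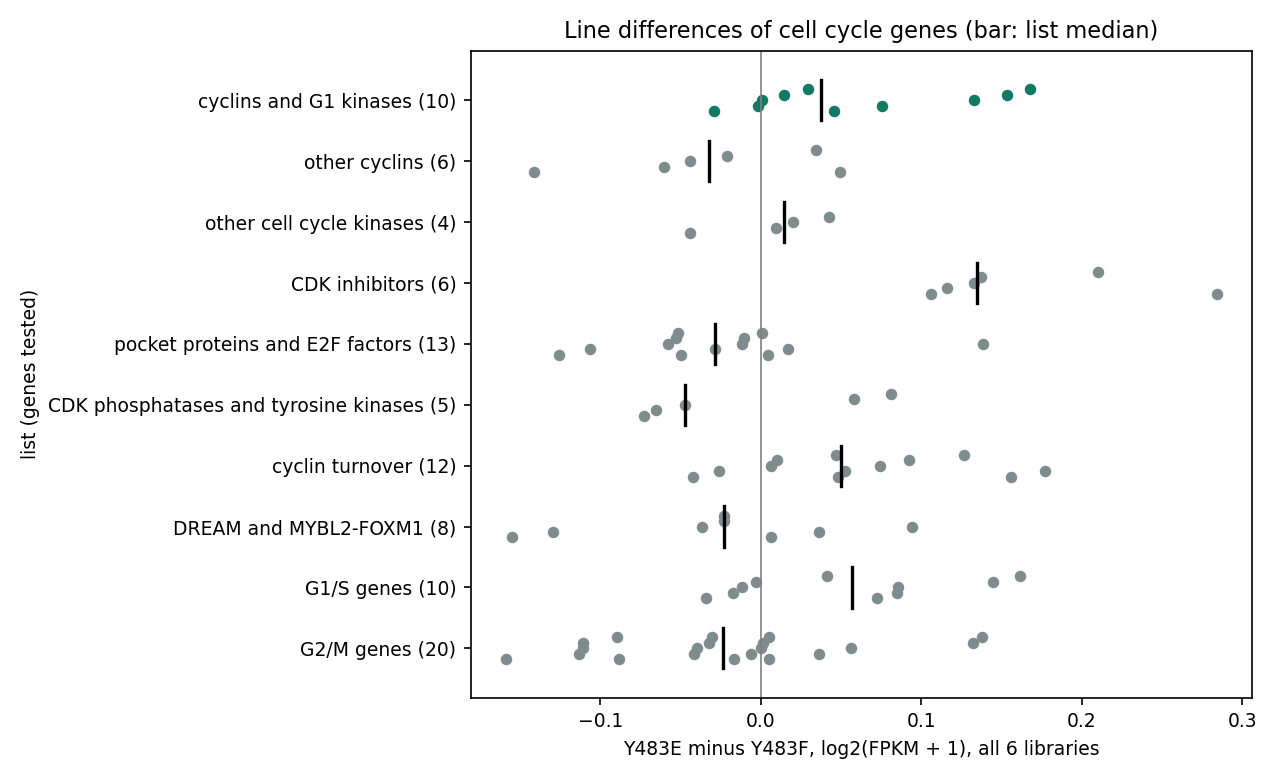
Difference of Y483E and Y483F in log2(FPKM + 1) over all 6 libraries (horizontal axis) for the 10 genes and the tested genes of 9 other cell cycle lists, 1 point a gene, with bars at the medians. The 6 CDK inhibitors all lie above 0 in these libraries (5 of 6 in those numbered 4 and 5), with a median of 0.13, and the other lists lie on both sides of 0.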

How the data were processed

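RNA from 6 libraries was selected with poly-T beads, per the labels' protocols, which describe strand-keeping and other preparations without saying which was used. HISAT2 2.0.5 and featureCounts 1.5.0-p3 are named in the submitters' processing notes, beside StringTie 1.3.3b, DESeq and DESeq2, with no roles. The build is not named in those notes. The positions of all 58735 genes equal those of GENCODE 29 on GRCh38. The authors deposited a table of FPKM and gene lengths. For 1652 genes the authors also deposited raw read counts, signal (counts divided by a size factor per library), a log2 fold change and p-values, per the file headers.

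FPKM times length and the authors' library total, worked out from the 1652 genes, gave whole reads within 0.01 for 100% of the values above 0. The main test was limma 3.58.1 (two-sided, variance trend) on log2(FPKM + 1) of genes whose mean reached 1 FPKM, at an adjusted p of 0.05 over all genes. Recovered reads were tested with edgeR 4.0.16 (quasi-likelihood, TMM) and DESeq2 1.42.0. The fits were tested on simulated data. The planted changes were larger than any difference between the lines given here, so small differences were not covered. Intervals of 95% use the moderated variance and are not adjusted for the number of genes. Single values were compared by exact permutation.

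The 10 genes, the lists and the alternatives were chosen with earlier results of these data known. Genes of other lists are named by a rule: up to 2 called genes with the largest change, or else the 2 with the highest mean FPKM. CDKN1A, CDKN1C, CDKN2C, CDKN2D, HMMR, CKS1B, DYRK1A, CDT1, PKMYT1, CCNA1, CCNB3 and CDK3 are named outside it, after their values were seen.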

Additional observations from a re-analysis of the deposited data

How the results depend on the processing

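No cyclin or G1 kinase was called with a pseudocount of 0.1, no filter, a filter at 5 FPKM or scaling to all reads. Median-of-ratios scaling called none either, and changed nothing, since the deposited FPKM already carry it. None was called with the replicate block or with a term for number 1 against 4 and 5 (the number term). The same held in edgeR, in DESeq2 and without any 1 library. Over the whole table the count called was 0 at the stated settings and without any 1 library (0 to 0). It was 733 in the libraries numbered 4 and 5, 1888 with array weights, 7 in edgeR and 126 in DESeq2. With the number term edgeR called 169, and on the libraries numbered 4 and 5 it called 2454. Of the 10 genes 1, 2 and 3 were called in the libraries numbered 4 and 5, with array weights and in edgeR on the libraries numbered 4 and 5. Of the other cell cycle genes 6 of 84, 12 of 84 and 13 of 89 were called there, near the shares of all genes, 5.71%, 14.7% and 15%. In DESeq2 and in edgeR with the number term 1 each was called, CDKN2A. For the library number edgeR called 231 genes in place of 0, among them CDKN1A, CDKN2C, CDT1 and PKMYT1, and limma without 1 library called 0 to 22.

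The replicate block gave 0 calls in limma and 6 in edgeR. Same-numbered libraries did not all deviate together (correlations across genes of 0.056, 0.139 and -0.095), and not every library correlated best with its own number, so the numbers were not treated as pairs.

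CDK4 stayed higher in Y483E in all 20 alternatives (0.11 to 0.17), as did CDK6 (0.13 to 0.23), CCND2 (0.086 to 0.27) and CCNA2 (0.039 to 0.11). The signs of the values near 0 turned. CCND1 was -0.0072 in edgeR, -0.0063 in edgeR with the replicate block and -0.0018 with scaling to all reads. In edgeR with the number term CCND1 was -0.0065. CCNB1 was 0.010 with array weights. Without 1 library the values ran from -0.026 to 0.032 for CCND1, -0.024 to 0.066 for CCND3, -0.024 to 0.051 for CCNE1, -0.129 to 0.025 for CCNE2, -0.052 to 0.045 for CCNB1 and -0.0014 to 0.107 for CCNB2. The cause was not tested. For CCNE2, at 281 to 433 reads, counting error was up to 5.97% of its level, and its coefficient of variation over the libraries was 10.2%.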

Other observations

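Cyclins outside the mitotic cycle of most tissues were near the limit of the test. CCNA1, the germ-line cyclin A, was at 1.03, 0.590 and 0.724 FPKM in Y483E, compared with 0.706, 0.463 and 0.512 FPKM in Y483F. In both lines replicate 1 was highest. CCNB3, the meiotic cyclin B, was at 0.230 to 0.393 and 0.339 to 0.518 FPKM, again highest in the replicates 1. Both lay under the filter at a mean of 1 FPKM and were not tested in limma. The kinase CDK3 was at 0.211 to 0.434 FPKM in Y483E, compared with 0.572 to 0.709 FPKM in Y483F, and was also under the filter. It rested on only 7 to 23 reads per library and did not pass in edgeR over all libraries (adjusted p 0.331).

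For the 2 members with the widest spread, the protein-coding genes with the most similar pattern were sought among 10928, by the root mean square difference of centred log2(FPKM + 1) over the 6 libraries. For CCND2 they were MAP2K5 (0.019), ITPRIP (0.020) and KIF5C (0.023), against an SD of 0.15 for CCND2 itself. All 3 were higher in Y483E replicates 2 and 3 than in the other 4 libraries, as CCND2 was. For CCNE2, with an SD of 0.12, they were MBLAC1 (0.016), IPPK (0.028) and ZFAND4 (0.036), each lowest in Y483F replicate 2. With 6 libraries and this many candidates close matches arise easily, and the likeness is given as a description.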
